A study of Rattus norvegicus with 16 samples.

Results

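The interferon-stimulated genes examined here were Mx1, Mx2, Ifit2, Ifit3, Isg15, Irf7, Usp18, Rsad2 and Oasl. They were found by symbol in the count files. Each of the 9 had 1 entry, and each entry was listed in every library, among 18031 genes listed in all of them. The blood came from 16 male Sprague-Dawley rats, adults of 85 to 90 days, all of them saline controls. Each rat received 4 saline injections of 1 ml/kg spaced 2 h apart, went without food and water over that time, and was sacrificed 3 h after the last injection. Whole blood was drawn by heart puncture, globin mRNA was depleted and polyadenylated RNA was sequenced. Because the labels give 1 group, the question was whether the genes rose and fell together from animal to animal. Each library is 1 animal, and a p-value measures the spread between animals. The study repeated its experiment over time, and the labels do not say which library belongs to which repeat. The spread between animals therefore includes any difference between repeats.

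Type I interferons are secreted proteins that warn cells of viral nucleic acid. They bind the Ifnar1 and Ifnar2 receptor, the Jak1 and Tyk2 kinases phosphorylate transcription factors, and these join Irf9 into a complex that binds interferon-stimulated response elements. Neutrophils, monocytes and lymphocytes of blood all respond to interferon, and a shared rise of such genes is widely read as an interferon signature of blood.

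Promoters are shown because the response element is the feature by which these genes are usually grouped. RefSeq (GRCr8) gave a window of 300 bases, from 250 before to 50 after the start of the gene, for 5 of the 9 members. These were Mx1, Ifit3, Irf7, Rsad2 and Oasl. The letters GAAANNGAAA, which resemble the core of the element, were searched on both strands. The windows of Ifit3, Irf7 and Rsad2 each held 1 match, and those of Mx1 and Oasl held none. Among all 33469 windows of that length 3.92% held a match, and among 101 windows of other genes of the interferon pathway 43 did. A match describes the letters only. The 3 windows with a match follow, read in the direction of the gene, with the matching letters in capitals. The match began 44 bases before the start in Ifit3, 69 before in Irf7 and 147 before in Rsad2.
Ifit3, chr1:241527076-241527375, plus strand: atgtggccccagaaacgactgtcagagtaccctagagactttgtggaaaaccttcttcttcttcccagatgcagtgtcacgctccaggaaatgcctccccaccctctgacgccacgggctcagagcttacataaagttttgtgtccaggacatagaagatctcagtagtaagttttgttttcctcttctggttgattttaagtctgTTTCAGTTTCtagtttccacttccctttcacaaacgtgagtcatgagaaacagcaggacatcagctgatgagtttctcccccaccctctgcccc
Irf7, chr1:205799974-205800273, minus strand: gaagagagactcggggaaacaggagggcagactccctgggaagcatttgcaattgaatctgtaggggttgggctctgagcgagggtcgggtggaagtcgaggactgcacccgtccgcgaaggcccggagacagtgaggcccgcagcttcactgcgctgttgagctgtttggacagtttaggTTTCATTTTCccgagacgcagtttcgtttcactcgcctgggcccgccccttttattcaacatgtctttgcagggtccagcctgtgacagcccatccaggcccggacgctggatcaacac
Rsad2, chr6:48788071-48788370, minus strand: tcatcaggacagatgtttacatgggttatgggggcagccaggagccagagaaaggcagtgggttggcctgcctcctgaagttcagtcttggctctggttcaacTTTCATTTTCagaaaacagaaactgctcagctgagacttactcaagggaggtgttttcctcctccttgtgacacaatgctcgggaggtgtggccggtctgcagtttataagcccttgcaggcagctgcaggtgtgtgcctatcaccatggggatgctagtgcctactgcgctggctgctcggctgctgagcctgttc
Across animals the Pearson r of log2 levels was 0.23 between Ifit3 and Irf7, 0.49 between Irf7 and Rsad2 and -0.50 between Ifit3 and Rsad2.

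The libraries held 21466776 to 31189549 estimated counts. The lowest count of any member in any library was 126, in Mx2, so no member was close to the limit of 3 counts. Red cell markers averaged 11.5 to 13.1 on the log2 CPM scale, where CPM scales a count to the library total, and pan-leukocyte markers 6.41 to 7.91. Controls 2 and 8 carried the most liver transcripts, with liver markers at a mean of 10.1 and 5.78 log2 CPM. Control 12 carried early lymphoid and fat markers, at 5.58 and 4.03 log2 CPM. Letters in the file names divide the libraries into code groups A (controls 1 to 3), B (4, 5, 7, 8 and 10), C (6 and 9), D (11 to 14), E (15) and F (16). What the code marks is not given in the labels.

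The antiviral effectors of the Ifit and Oas families varied widely. Ifit2 (ENSRNOG00000036604), an RNA-binding antiviral protein, had normalised read counts of 847 in the lowest library, 2234 at the median and 4636 in the highest. Ifit3 (ENSRNOG00000022839), a partner of other Ifit proteins, ran from 3735 through a median of 13648 to 25805. Oasl (ENSRNOG00000001187), an oligoadenylate synthetase-like protein that enhances RNA sensing, ran from 620 through 2111 to 3523. Control 6 was lowest for all 3 genes, and controls 1, 9 and 14 were high in each. Ifit2 had no library between 1342 and 2191, with 7 libraries below this gap and 9 above it.

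Isg15 and Usp18 are linked in function, the first being a ubiquitin-like modifier and the second the protease that removes it. Isg15 (ENSRNOG00000021802) had 668 normalised counts at its lowest, 2005 at the median and 10902 at its highest. Control 14 held that top value and the next library, control 1, held 4739. Usp18 (ENSRNOG00000037198), which also blocks signalling at the Ifnar2 receptor, ran from 231 through a median of 408 to 895. Control 6 was lowest and controls 1, 14 and 9 highest for Usp18. Controls 1, 9 and 14 were thus among the top 5 libraries for both, as for Ifit2, Ifit3 and Oasl. The highest library exceeded the lowest by 16.3-fold for Isg15 and 3.87-fold for Usp18.

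In the remaining 4 members control 6 was not the lowest library. Irf7 (ENSRNOG00000017414), the transcription factor that amplifies interferon production, ran from 8852 in control 15 through 26172 to 50557 in control 1. Rsad2 (ENSRNOG00000007539), or viperin, an enzyme that makes a chain-terminating nucleotide, ran from 15938 in control 11 through 27860 to 80214 in control 10. Control 6, lowest for 5 members, had the rank 3 of 16 for Rsad2, and control 14, among the top 4 for 8 members, had the rank 15. Mx1 (ENSRNOG00000001959), a dynamin-like GTPase that traps viral nucleocapsids, ran only from 1459 in control 8 through 2583 to 3329 in control 3. Mx2 (ENSRNOG00000001963), its close relative, ran from 163 in control 8 through 249 to 468 in control 14. Every Mx1 and Mx2 value in the 16 libraries was not a whole number, so some reads were divided with other transcripts, and which ones these were was not tested. Usp18 was whole in each library, and the other members had such divided values in 6 to 13 libraries.

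**Figure D1:**
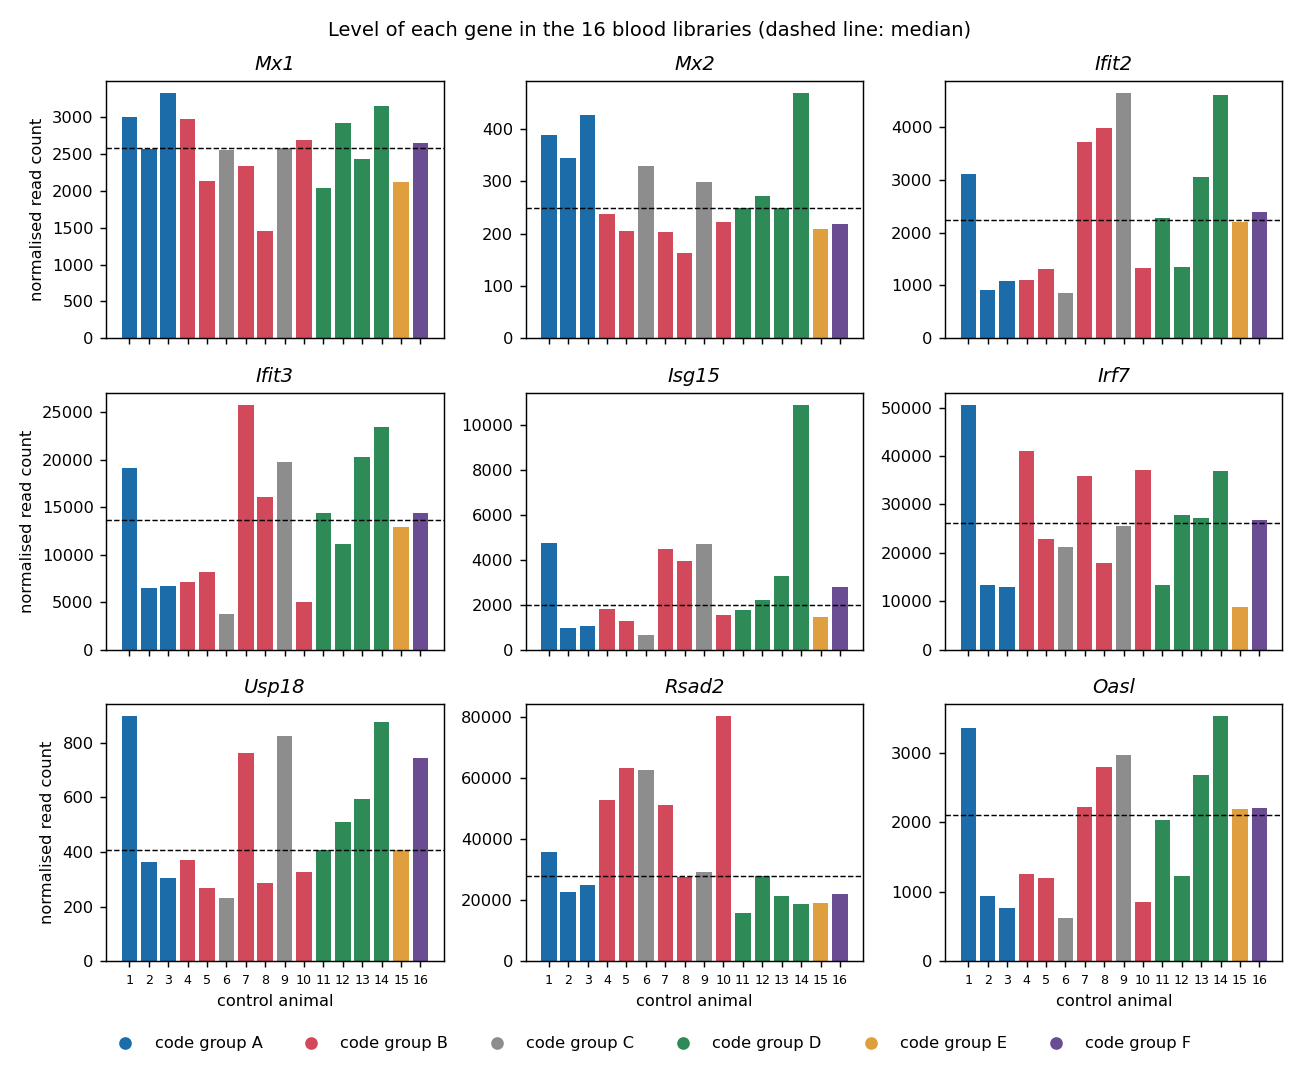
Normalised read count (vertical axis, linear from 0) of each gene in each of the 16 control animals (horizontal axis), with bars coloured by code group and a dashed line at the median. Control 6 is lowest for Ifit2, Ifit3, Isg15, Usp18 and Oasl, while Rsad2 is highest in control 10 and Mx1 in control 3.

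The spread was unequal among the members. On the log2 scale the standard deviation over 16 animals was 0.30 for Mx1 and 0.43 for Mx2. It was 0.66 for Usp18, 0.70 for Irf7, 0.73 for Rsad2, 0.82 for Oasl, 0.85 for Ifit2, 0.85 for Ifit3 and 1.06 for Isg15. Of the genes tested, 25.0% had a lower value than Mx1 and 90.7% a lower value than Isg15. Mx1 was thus among the steadier genes of these libraries and Isg15 among the more variable.

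The 9 genes did not vary as a single group. Over their 36 pairs the Pearson r of log2 levels ran from -0.50 (Ifit3 and Rsad2) to 0.94 (Ifit2 and Oasl), with a median of 0.25. Over all pairs of genes tested the median was -0.011. Of the member pairs 30.6% exceeded 0.7, against 2.85% of all pairs, and 12 member pairs were below 0. Ifit2, Ifit3, Isg15, Oasl and Usp18 formed all but 1 of the 11 pairs above 0.7, with r from 0.72 to 0.94 and Spearman rho from 0.72 to 0.93. Leaving out any 1 library, the lowest r among these 10 pairs was 0.67, and centred within code groups they ran from 0.77 to 0.95. Below the gap in Ifit2 the 10 pairs had r from 0.46 to 0.84 (7 libraries), and above it from 0.34 to 0.87 (9 libraries). The remaining pair above 0.7 was Mx1 and Mx2. Centring leaves the single libraries of code groups E and F without any deviation, so they add nothing to a centred r. A centred r thus rests on fewer libraries than the uncentred one. Other pairs moved more when centred within code groups. Rsad2 with Mx1 went from 0.08 to 0.60, Rsad2 with Mx2 from -0.23 to 0.30, Irf7 with Mx2 from 0.11 to 0.47 and Irf7 with Usp18 from 0.50 to 0.71. Rsad2 stayed below 0 with the 5 genes, from -0.53 with Ifit2 to -0.10 with Usp18.

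**Figure D2:**
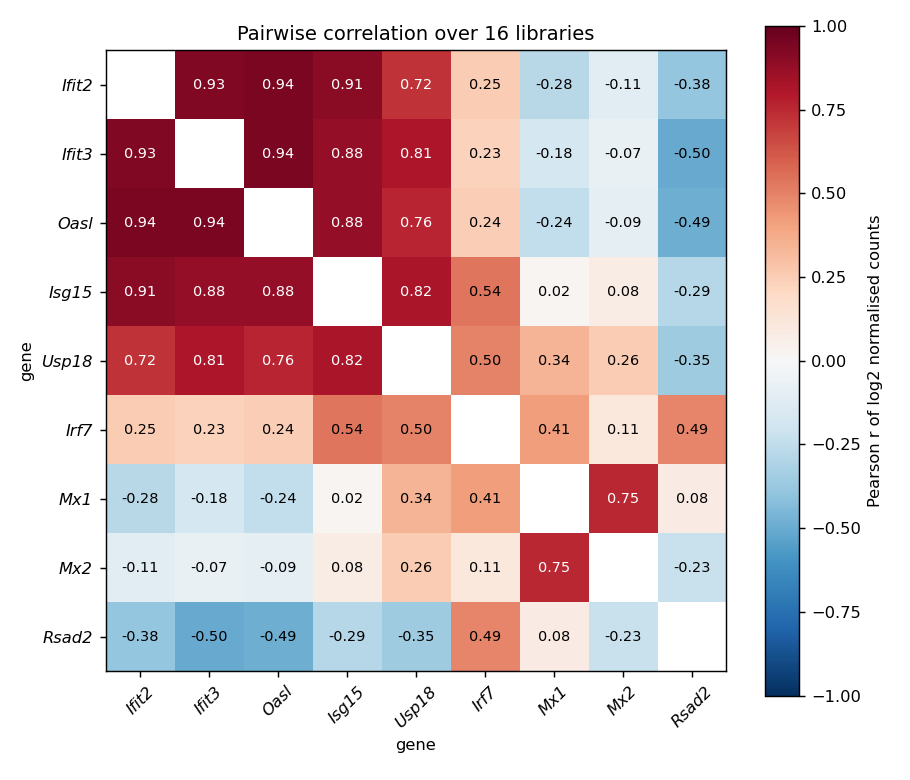
Pearson r of log2 normalised counts for each pair of genes over the 16 libraries, on a colour scale from -1 to 1 with the value printed in each cell. The upper left block of Ifit2, Ifit3, Oasl, Isg15 and Usp18 runs from 0.72 to 0.94, the Mx1 and Mx2 cell stands at 0.75, and Rsad2 is below 0 with 6 of the other 8 genes.

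Permutation tests over the libraries called 16 ordered pairs by r and 15 by rho. All these pairs had Ifit2, Ifit3, Isg15 or Oasl as the covariate. Of all 12581 genes compared, 2434, 1380, 473 and 1928 were called by r with these 4 in that order. By rho 1913, 1541, 28 and 1553 were called. Oasl with Ifit2 had r = 0.94 and rho = 0.93, each with a two-sided permutation p of 1e-05, the smallest that 100000 permutations can give. Adjusted over all genes tested, these p-values were 0.0011 for r and 0.0022 for rho. Leaving out controls 2 and 6, whose Ifit2 lay farthest from the median, r was 0.92. Usp18 with Isg15 had r = 0.82 (permutation p = 0.0002, adjusted 0.037) and rho = 0.81 (permutation p = 0.0002, adjusted 0.066), and without controls 6 and 14 r was 0.75. Mx2 with Mx1 had r = 0.75 (permutation p = 0.0005) and rho = 0.70 (permutation p = 0.0032), but after adjustment p was 0.16 and 0.50. Without controls 3 and 8 that r was 0.62, and centred within code groups it was 0.755. Rsad2 with Ifit3 had r = -0.50 (permutation p = 0.050, adjusted 0.19) and rho = -0.41 (permutation p = 0.12, adjusted 0.32). Without controls 6 and 10, whose Ifit3 lay farthest from the median, r was -0.17, and without controls 5 and 10, farthest for Rsad2, it was -0.34. Leaving out any 1 library it ran from -0.66 to -0.39, and centred within code groups it was -0.49. Irf7 with Isg15 had r = 0.54 (permutation p = 0.034, adjusted 0.21) and rho = 0.59 (permutation p = 0.018, adjusted 0.16). In all, 72 ordered relations between members were computed.

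**Figure D3:**
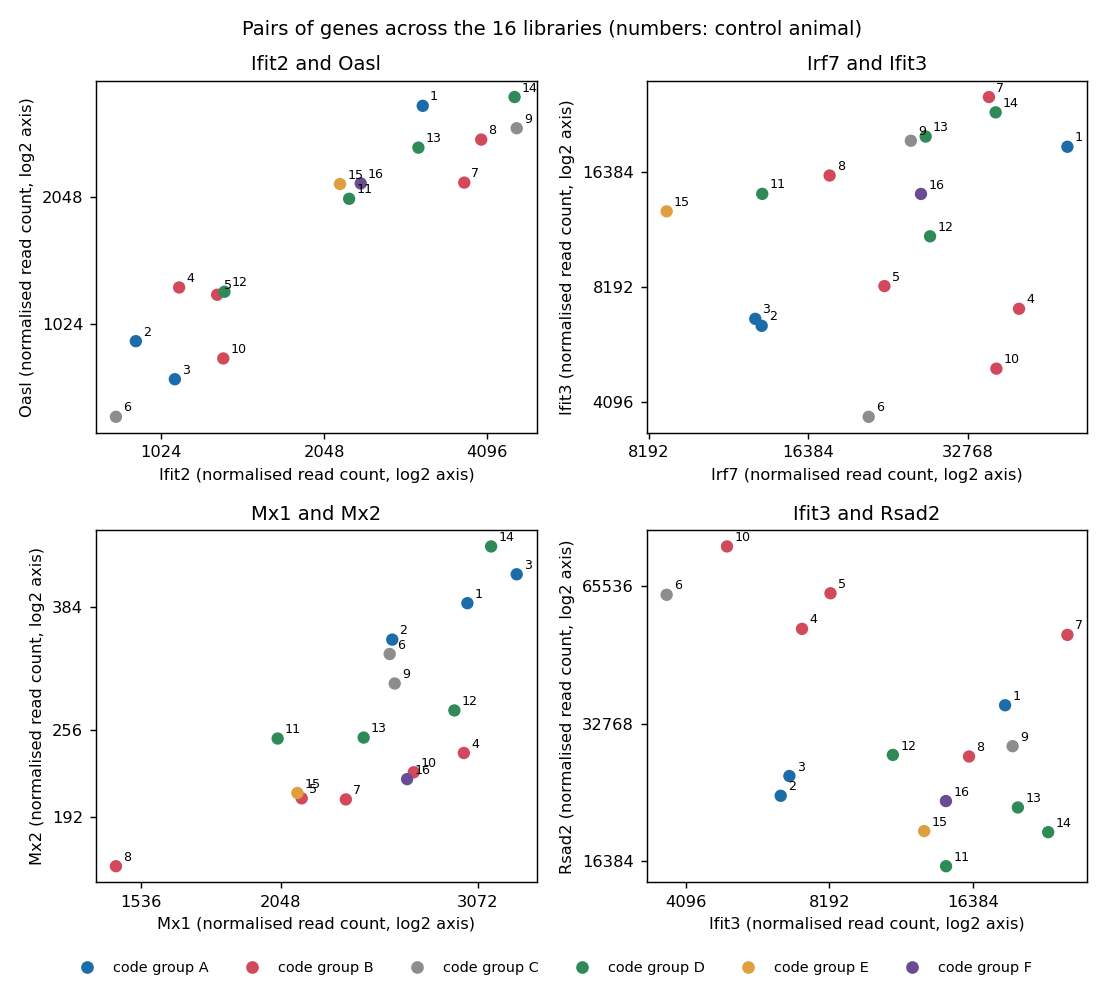
Normalised read counts of 4 pairs of genes on log2 axes, with 1 point for each of the 16 control animals, numbered and coloured by code group. Ifit2 and Oasl lie along a line (r = 0.94), Mx1 and Mx2 rise together with more scatter (0.75), Irf7 and Ifit3 show a loose cloud (0.23), and the highest Rsad2 values fall among low Ifit3 values with control 7 as an exception (-0.50).

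Each member was then used as a covariate in a fit across 12581 genes, which gives the slope of a gene as its log2 change per doubling of the member. Irf7, as the transcription factor of the set, came first. None of the other 8 members was called with Irf7 by the edgeR quasi-likelihood test (Benjamini-Hochberg adjusted p under 0.05), nor by DESeq2 or limma-voom, while 3 of 8 had an unadjusted p under 0.05. Those 3 were Isg15 with a slope of 0.91 ± 0.32 (SE, edgeR adjusted p = 0.37), Usp18 with 0.51 ± 0.20 (0.51) and Rsad2 with 0.55 ± 0.25 (0.80). All 8 slopes were above 0. Over all genes 3 rose with Irf7, which is 0.0238%.

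Ifit2, Ifit3, Isg15 and Oasl each called 4 of the other 8 members, which were the other 3 of these genes plus Usp18, and each of these rose. DESeq2 called 4, 4, 4 and 5 members there and limma-voom 4 in each fit. These counts do not separate rises from falls, and which member DESeq2 added with Oasl is not given here. By edgeR, Rsad2 had a slope of -0.48 ± 0.18 on Oasl (SE, unadjusted p = 0.018, adjusted 0.081). The share of all genes that rose was 13.2% with Ifit2, 10% with Ifit3, 4.71% with Isg15 and 12% with Oasl, while 7.36%, 1.99%, 0.811% and 4.7% fell. Per doubling of Ifit3, Ifit2 rose by 0.92 ± 0.10 (SE, edgeR adjusted p = 0.00020), Oasl by 0.91 ± 0.09 (0.00013), Isg15 by 1.12 ± 0.16 (0.00061) and Usp18 by 0.65 ± 0.11 (0.0018). The 16 called slopes ran from 0.53 to 1.18. Slopes near 1 mean that a doubling of one gene went with about a doubling of the other.

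Usp18, Mx1, Mx2 and Rsad2 called none of the other members by edgeR. With Usp18 as the covariate 5 of 8 had an unadjusted p under 0.05, and DESeq2 called 3 and limma-voom 0. Ifit3 had a slope of 0.95 ± 0.20 on Usp18 (edgeR adjusted p = 0.10) and Oasl one of 0.82 ± 0.21 (0.25). By edgeR the unadjusted p was 0.00019 for Ifit3 on Usp18, not called, and 0.00023 for Usp18 on Ifit2, called. The adjustment covers all genes of a fit, so a call also depends on how many other genes follow the covariate. With Mx1, Mx2 and Rsad2 in turn 1, 1 and 1 of 8 had an unadjusted p under 0.05, DESeq2 called 1, 1 and 0, and limma-voom called none. Mx2 had a slope of 1.17 ± 0.26 on Mx1 (edgeR adjusted p = 0.15), which passed with DESeq2 (0.020), with total count scaling (0.00016), without control 2 (0.044) and without control 14 (0.030). The background was also low here, since 0.0874% of genes rose with Usp18, 0.00795% with Mx1, 0% with Mx2 and 2.82% with Rsad2. In total 16 of 72 ordered pairs were called, 20 without controls 2 and 8 and 16 without control 12.

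Some of the blood cell marker lists moved with the same 4 covariates. No natural killer cell, platelet or red cell marker was called with any of the 4. Neutrophil markers averaged 4.19 log2 CPM in the lowest library, 6.42 at the median and 7.96 in the highest. All 6 neutrophil markers tested rose with Ifit2, with Ifit3 and with Oasl, and 3 of 6 with Isg15. The shares of all genes that rose were 13.2%, 10%, 12% and 4.71% in that order. Per doubling of Ifit3, S100a9, a calcium-binding protein of neutrophil cytosol, rose by 1.40 ± 0.29 (SE, edgeR adjusted p = 0.0047) and Csf3r, the receptor for granulocyte colony-stimulating factor, by 1.13 ± 0.17 (0.00090). Pan-leukocyte markers rose in 4 of 6 cases with Ifit3 and monocyte markers in 2 of 7. B cell markers fell in 0 of 5 cases with Ifit3, 3 with Ifit2, 2 with Isg15 and 2 with Oasl. The shares of all genes that fell were 1.99%, 7.36%, 0.811% and 4.7% in that order. By edgeR none of the 6 neutrophil markers rose with Irf7, Usp18, Mx1, Mx2 or Rsad2, where 0, 0, 2, 0 and 1 had an unadjusted p under 0.05. Their slopes were above 0 for 2, 6, 0, 0 and 0 of the 6 markers, so the low p-values with Mx1 and Rsad2 belonged to slopes below 0. In whole blood fewer cells of a type and less RNA per cell cannot be told apart.

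The neutrophil marker level had r = 0.88 with Ifit2, 0.84 with Ifit3, 0.84 with Oasl, 0.77 with Isg15 and 0.46 with Usp18. This level was thus itself correlated with these covariates, and least so with Usp18. With the neutrophil marker level as a further term, 1 of 72 ordered pairs was called in place of 16. The cause of the lost calls was not tested. The pair still called was Ifit3 on Usp18, with a slope of 0.69 (edgeR adjusted p = 0.043). The slopes among Ifit2, Ifit3, Isg15, Oasl and Usp18 then still ran from 0.47 to 1.19, all above 0. Over all genes 1 was called with Ifit3 in that fit, in place of 1509, and 1163 had an unadjusted p under 0.05. Irf9 had a slope of 0.38 on Ifit3 with the term (edgeR adjusted p = 0.22). With the pan-leukocyte level as a further term 7 pairs were called, and with the monocyte, B cell, T cell and red cell levels 13, 16, 18 and 16.

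The wider interferon pathway, 119 genes outside the 9 members, was followed by role. Of the 12 ligands only 1 was listed in every library and it did not pass the minimum mean count, so no interferon transcript was tested. In all 96 pathway genes were tested. Of these, 47 rose with Ifit2, 45 with Ifit3, 45 with Oasl and 37 with Isg15, and none fell with any of the 4. The shares of all genes that rose were 13.2%, 10%, 12% and 4.71% in that order. By edgeR 6 rose with Usp18, 3 with Irf7, 3 with Rsad2, 0 with Mx1 and 0 with Mx2, where 42, 14, 20, 22 and 14 had an unadjusted p under 0.05. Over all 12581 genes 2158 had an unadjusted p under 0.05 with Rsad2. That background is not given here for Usp18, Irf7, Mx1 and Mx2, so their unadjusted counts are not read as a result. Slopes were above 0 for 88 of the 96 genes with Usp18, 72 with Irf7, 18 with Rsad2, 54 with Mx1 and 63 with Mx2, and for 77 to 80 with the first 4 covariates. The share of all genes with a slope above 0 is not given here. Their median slope was -0.02 with Usp18, -0.009 with Irf7, -0.04 with Rsad2, 0.06 with Mx1 and 0.08 with Mx2. The median slope of the other target genes was 0.34 with Usp18. The difference between covariates was not tested.

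**Figure D4:**
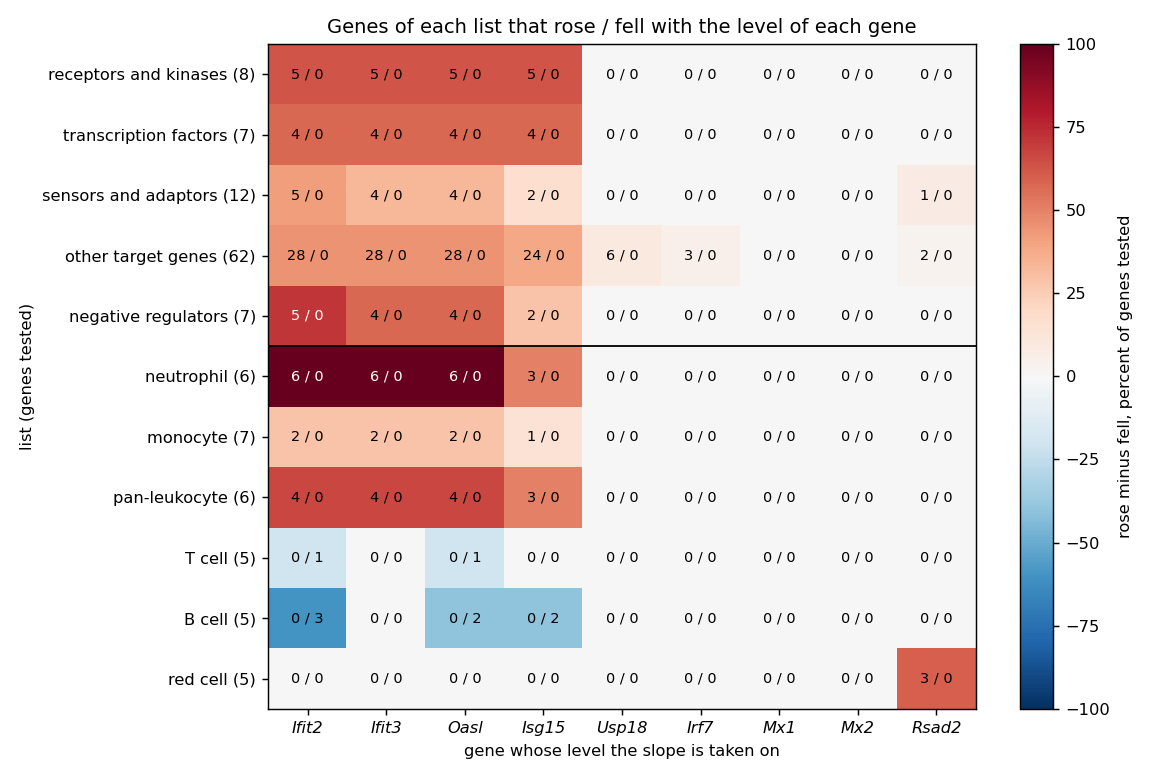
Number of genes of each list (rows, with the number tested in brackets) that rose / fell with the level of each of the 9 genes (columns) at an edgeR adjusted p under 0.05, coloured by the difference as a percent of the genes tested. Counts fill the columns of Ifit2, Ifit3, Oasl and Isg15, reach 6 of 6 for neutrophil markers, and are 0 throughout for Mx1 and Mx2.

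Receptors and kinases rose in 5 of 8 cases with Ifit3, at a median slope of 0.50, against -0.06 over all genes. Ifngr1, a chain of the receptor for type II interferon, rose by 0.66 ± 0.11 (SE, edgeR adjusted p = 0.0014), whereas Jak1, a kinase of the type I receptor, had a slope of 0.09 ± 0.07 (0.38). Transcription factors rose in 4 of 7 cases, among them Irf1 and Irf9. Irf9, the DNA-binding part of the type I complex, rose by 0.47 ± 0.05 (edgeR adjusted p = 0.00013). Sensors and adaptors rose in 4 of 12 cases, among them Myd88, the adaptor of most Toll-like receptors, at 0.91 ± 0.12 (edgeR adjusted p = 0.00058), while Tmem173, the adaptor known as STING, had a slope of -0.19 ± 0.10 (0.20). Other target genes rose in 28 of 62 cases at a median slope of 0.26. Negative regulators rose in 4 of 7 cases, and Socs3, an inhibitor of Jak kinases, rose by 1.67 ± 0.29 (edgeR adjusted p = 0.0017).

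With Irf7 the pathway looked different. The 3 genes that rose were each other target genes of the list. Lgals3bp, a secreted galectin-binding protein, rose by 1.02 ± 0.11 (SE, edgeR adjusted p = 0.00070), Oas1i, an oligoadenylate synthetase, by 1.12 ± 0.16 (0.0095) and Ube2l6, the conjugating enzyme for Isg15, by 0.84 ± 0.12 (0.0095). None of these 3 passed with Ifit3, where the slopes were 0.13 ± 0.21, 0.22 ± 0.24 and 0.02 ± 0.17. The difference between the 2 covariates was not tested. In the remaining roles no gene was called with Irf7. Abundant ones had slopes of 0.12 ± 0.09 for Jak1, -0.04 ± 0.22 for Ifngr1, 0.04 ± 0.18 for Irf1, 0.05 ± 0.29 for Myd88 and -0.02 ± 0.13 for Tmem173. Slfn3 and Ifit1lb, the most abundant other targets, had 0.28 ± 0.20 and 0.15 ± 0.39, and the phosphatases Ptpn6 and Ptpn1 had -0.01 ± 0.15 and 0.09 ± 0.32.

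Usp18 went with 11 genes that rose, of which 6 were in the pathway list. Oas1b rose by 0.90 ± 0.08 per doubling of Usp18 (SE, edgeR adjusted p = 4.8e-05), Herc6, a ligase for Isg15 in mice, by 0.95 ± 0.11 (0.00079) and Mlkl, the effector of necroptosis, by 0.92 ± 0.12 (0.0047). Oas2, XAF1 and Slfn3 made up the 6. These genes were chosen for mention after their values were seen.

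Rsad2 went with 355 genes that rose, 3 of them in the pathway list. These 3 were 3.1% of the 96 pathway genes tested, near the 2.82% of all genes that rose. Of the 96 slopes 18 were above 0, and the median slope over all genes was -0.04. Cmpk2, a nucleotide kinase that lies beside Rsad2 on chromosome 6 of GRCr8 with 0 protein-coding genes between, rose by 0.60 ± 0.10 per doubling of Rsad2 (SE, edgeR adjusted p = 0.0053). Isg20, an exonuclease, rose by 0.49 ± 0.12 (0.029) and Mavs, the mitochondrial adaptor of RNA sensing, by 0.42 ± 0.09 (0.023). Red cell markers rose with Rsad2 in 3 of 5 cases, with Slc4a1, the anion exchanger of the red cell membrane, at 0.81 ± 0.15 (edgeR adjusted p = 0.0081), and Alas2 and Epb42 called as well. The globin genes HBB and Hba-a2, which were depleted, had slopes of 0.20 ± 0.30 (edgeR adjusted p = 0.79) and -0.01 ± 0.27 (0.99). With the red cell marker level as a further term edgeR called 0 genes with Rsad2 in place of 373, and 2172 against 2158 had an unadjusted p under 0.05. Cmpk2 then had a slope of 0.40 (edgeR adjusted p = 0.090), Isg20 one of 0.24 (0.34) and Mavs one of 0.49 (0.080). Ifit2 and Ifit3 are also neighbours with 0 protein-coding genes between, and Mx1 and Mx2 have 1 between them.

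Across all genes, those most like the mean standardised level of the 9 members were Herc6 (r = 0.94 over 16 libraries), Oas1b (0.89), Rnf114 (0.89), Zcchc2 (0.87), Irgm (0.85), Mlkl (0.84), Oas2 (0.83), Parp12 (0.83), Ogfr (0.82) and Trafd1 (0.82). These were the highest of 9614 genes compared, and 5 of the 10 were in the pathway list. The lowest were Manea (-0.74), Nmnat1 (-0.72), Tmem5 (-0.72), Reep6 (-0.69) and Comtd1 (-0.69). Against the mean of the other 8 members, r was 0.87 for Usp18, 0.86 for Isg15, 0.66 for Ifit3, 0.65 for Ifit2, 0.63 for Oasl, 0.59 for Irf7, 0.18 for Mx1, 0.14 for Mx2 and -0.30 for Rsad2. The mean therefore described Usp18 and Isg15 well and Rsad2 and the Mx pair poorly.

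The genes most like each single member differed. Irf9 was the gene most like Ifit2 (r = 0.97) and Ifit3 (0.96), and Ripk3, a kinase of necroptosis, was most like Oasl (0.96). Rnf114 was most like Isg15 (0.92), Oas1b most like Usp18 (0.95) and Lgals3bp most like Irf7 (0.94). For Rsad2 the nearest were Dlgap5 (0.94) and Dcaf8 (0.93), for Mx1 Nanp (0.84) and for Mx2 Rtp4 (0.81). These were also chosen after their values were seen.

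Code groups were compared for those with at least 3 libraries, A, B and D, in a fit across 12952 genes. In A against B and A against D edgeR called 0% and 0% of genes and none of the 9 members, with 2 and 0 members at an unadjusted p under 0.05. DESeq2 called 1 and 0 of the members there and limma-voom 0 and 0. In B against D 2.3% of genes were called and 1 of the 9 members. Ifit2, Ifit3, Isg15, Oasl, Usp18, Irf7 and Mx1 had edgeR adjusted p-values of at least 0.519 in each comparison. The comparisons share libraries.

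Rsad2 was the member called. Its normalised counts were 52886, 63310, 51301, 27750 and 80214 in code group B and 15938, 27969, 21447 and 18929 in D. The lowest library of B, control 8, lay just below the highest of D, control 12, and otherwise the groups were apart. The mean was 55092 ± 19141 (SD, n = 5) in B and 21071 ± 5121 (SD, n = 4) in D, a log2 difference of -1.38 ± 0.30 (SE, edgeR adjusted p = 0.041). In the same comparison 3 of 5 red cell markers were lower in D, where 2.26% of all genes were lower, and red cell markers averaged 11.9 to 13.1 log2 CPM in B and 11.6 to 11.9 in D. The call was lost in 9 of 12 fits that left out 1 library (controls 2, 3, 5, 7, 10, 11, 12, 13 or 14, adjusted p up to 0.15), and the difference kept its sign in every fit. With total count scaling, which moved the median gene by 0.52 between B and D, the difference was -0.85 (edgeR adjusted p = 0.18), and without controls 2, 8 and 12 it was -1.71 (0.066).

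Mx2 was lower in B than in A without a call. In that comparison edgeR called 0% of genes, while 1755 had an unadjusted p under 0.05. The share of all genes without overlap between A and B was not computed. Mx2 had 388, 345 and 427 normalised counts in A and 237, 204, 204, 163 and 223 in B. The mean was 387 ± 41.4 (SD, n = 3) against 206 ± 27.7 (SD, n = 5), a log2 difference of -0.92 ± 0.22 (SE, edgeR adjusted p = 0.11). DESeq2 called it (adjusted p = 0.014), as did edgeR without control 4 (0.046), while without controls 2, 8 and 12 the difference was -0.93 (0.43). In D it had 249, 273, 250 and 468. Code group and any other property that the code stands for cannot be told apart.

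**Figure D5:**
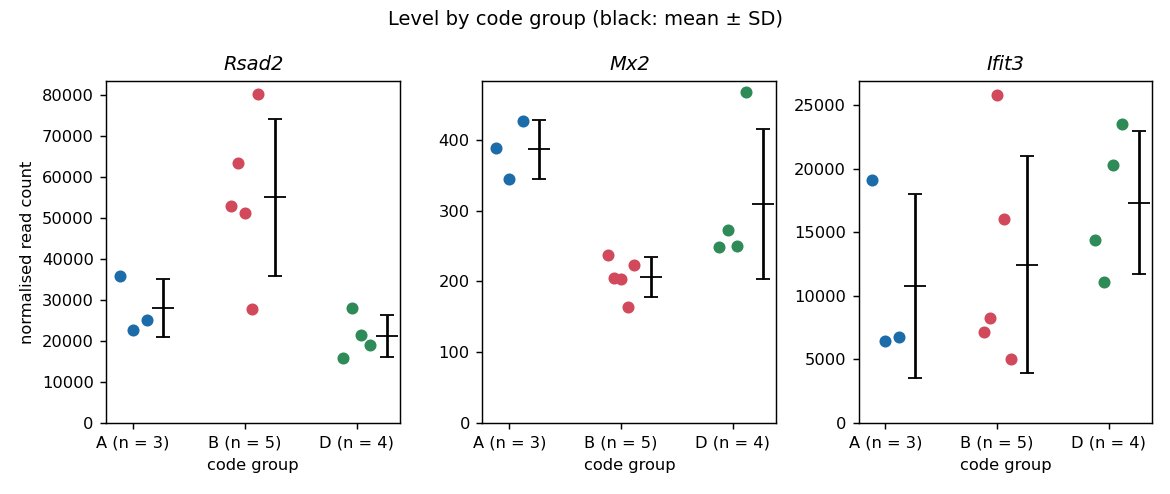
Normalised read count (vertical axis, linear from 0) of Rsad2, Mx2 and Ifit3 in code groups A, B and D, with 1 point per animal and the mean ± SD in black. Rsad2 spans 27750 to 80214 in B and 15938 to 27969 in D, and Ifit3 overlaps in all 3 groups. Mx2 is at 345 or above in A and at 237 or below in B, but edgeR did not call it there. The share of all genes without overlap between A and B was not computed.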

How the data were processed

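Whole blood RNA of 16 saline controls was measured by paired-end RNA-seq. The authors trimmed reads, aligned them with Bowtie 0.12.9 to an Ensembl transcriptome of rn5, counted with RSEM 1.2.0 and deposited estimated counts per gene, which are not normalized. CASAVA 1.8.2 is also named in the submitters' processing notes. The study replaced outlying values afterwards, which was not done here. Rounded counts of genes listed in every file were used. The lowest chi-square per degree of freedom between libraries was 48.0, so each was counted as 1 sample.

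Normalised read counts were divided by DESeq2 size factors, and log2 levels used a pseudocount of 1. Slopes came from edgeR 4.0.16 (R 4.3.3, TMM, mean count of at least 10, quasi-likelihood test, Benjamini-Hochberg adjustment over all genes), with the member's centred log2 CPM as covariate and the member itself left out. The code group fit used filterByExpr. DESeq2 1.42.0 and limma 3.58.1 were alternatives. Permutation tests used 100000 permutations in Python 3.11.15. Code was tested on simulated counts.

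The members and lists were chosen with earlier results of these data known. Named genes were the members, per role those called with Irf7 and up to 2 others of highest level, the 10 genes most like and 5 least like the members' mean, and markers called with Irf7, of which there were none. Others were named after their values were seen. A gene that the rule names is not reported here. The relations with members other than Irf7 as one family of 72 and the red cell term were added after seeing the data. Floors cover counting error only.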

Additional observations from a re-analysis of the deposited data

Results flagged for a closer look

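Within the code groups of 4 or 5 libraries, B and D, 3 of 18 gene and group combinations had a library far from the others by Dixon's criterion. The criterion was applied to normalised counts, not to log2 levels. Its rate of about 1 in 20 holds for normally distributed values, which was not tested here, so the 3 are not set against chance. Isg15 had 10902 normalised counts in control 14, and the next library of code group D had 3263. Mx2 had 468 normalised counts in control 14, and the next of D had 273. Usp18 had 761 normalised counts in control 7, and the next library of code group B had 372.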

How the results depend on the processing

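No paired analysis was possible because the labels give 1 group. With Irf7 as the covariate 0 members were called under the other normalizations, tools and filters, with each marker term, and leaving out any 1 library, but 4 were called with Ifit2, 4 with Ifit3, 4 with Isg15 and 4 with Oasl in its place, and 0 with Mx1, Mx2, Usp18 or Rsad2. The 16 ordered pairs became 1 with the neutrophil marker term and 7 with the pan-leukocyte term. The other settings gave 13 to 24 pairs, and leaving out 1 library gave 16 to 20. The median r over member pairs was 0.25 and ran from 0.23 to 0.36 over the 6 alternatives and from 0.15 to 0.33 leaving out 1 library, within its jackknife standard error of 0.19. For A against B, 1 member (Mx2) was called with DESeq2, and leaving out 1 library gave 0 to 1. For B against D, 0 members were called with total count scaling, 0 without the filter, 0 without controls 2, 8 and 12 and 0 with only these groups fitted, and leaving out 1 library gave 0 to 1. For A against D every setting gave 0. The cause of these changes was not tested. Between A and B total count scaling moved the median gene by -0.50 on the log2 scale. None of the 23 named slopes and differences recomputed changed sign.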
